A study of Homo sapiens with 3 samples.

Results

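The collagen genes were examined in SUM-149 xenograft tumors treated with vehicle, a CDK2 inhibitor (CDK2i) or an EZH2 inhibitor (EZH2i). They were chosen by name alone, as every gene in the deposited expression table whose symbol is COL, a type number, A and a chain number, and there were 44 of them among 29689 genes. By textbook knowledge of the proteins, they were divided into 11 fibrillar, 9 basement membrane, 4 transmembrane, 10 FACIT (fibril-associated collagens with interrupted triple helices) and 10 type VI and other collagens. SUM-149 is a human TNBC (triple-negative breast cancer) cell line, and the study used RNAseq of its xenografts to ask which genes respond when CDK2 or the histone methyltransferase EZH2 is inhibited.

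All tumors grew from SUM-149 cells mixed with Matrigel, a basement membrane extract, and injected into the mammary fat pads of female Nu/Nu mice, a strain that lacks T cells but keeps its own fibroblasts, vessels and innate immune cells. The CDK2i tumor was labelled as treated with dinaciclib and the EZH2i tumor with EPZ6438, both for 10 days, while the label of the vehicle tumor gives no time of its own. The study's text names another EZH2 inhibitor, GSK343, for SUM-149 xenografts, so the identity of the EZH2i rests on the label. There was 1 library per condition from 1 cell line, so no value has a replicate and no p-value is given. The libraries held about 16.8 M (vehicle), 19.1 M (CDK2i) and 17.5 M (EZH2i) fragments (M, 1000000), as recovered from the smallest steps of the values. The epithelial identity of the tumors was borne out by 7 of 7 epithelial markers, whose summed level was 5248 FPKM (fragments per kilobase of transcript and M fragments) in vehicle, 12366 in CDK2i and 4908 in EZH2i. KRT5, KRT14 and KRT17, keratins of basal epithelium, were more than 2-fold higher in the CDK2i tumor.

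Collagens are proteins of 3 chains wound into a triple helix. Fibrillar collagens build the tensile fibers of connective tissue and are made mainly by fibroblasts, whereas type IV collagen forms the sheet-like network of basement membranes. In mammary and skin epithelium, the transmembrane collagen XVII and the anchoring fibrils of collagen VII tie basal cells through hemidesmosomes and laminin-332 to the matrix below. Chains of a heterotrimer are encoded by different genes, and some of these lie head to head and share the stretch of DNA between their start sites.

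The sequences upstream of 4 sets of genes that differed between the tumors are shown first, since they contrast a shared with a single promoter and a CpG-rich with a CpG-poor one. They were taken from RefSeq on GRCh38.p14, which held promoters for 32 of the 44 collagens. No entry was given for COL1A1, COL1A2, COL2A1, COL3A1, COL5A2, COL6A1, COL6A5, COL8A1, COL9A3, COL14A1, COL20A1 and COL22A1. Capitals mark the CCAAT box, the GC box with the letters GGGCGG and the TATA box with the letters TATAAA, each searched on both strands, so that a motif on the opposite strand appears as its reverse complement. Near the 3′ end of the COL9A2 sequence 2 GC boxes on that strand overlap. The first sequence is the whole interval between the start sites of COL4A1 and COL4A2 (chr13:110307158-110307283, plus strand), the second is the stretch common to the windows of COL4A6 and COL4A5 (chrX:108439588-108439708, plus strand), and the others are the 250 bases before the start of COL9A2 (chr1:40317287-40317536, minus strand) and of COL17A1 (chr10:104085881-104086130, minus strand).
COL4A1-COL4A2: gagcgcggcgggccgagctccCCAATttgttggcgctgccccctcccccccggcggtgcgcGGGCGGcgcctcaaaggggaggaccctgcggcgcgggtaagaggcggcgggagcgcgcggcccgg
COL4A6-COL4A5: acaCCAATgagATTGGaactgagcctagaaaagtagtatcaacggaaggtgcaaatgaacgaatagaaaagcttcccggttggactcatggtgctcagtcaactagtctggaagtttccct
COL9A2: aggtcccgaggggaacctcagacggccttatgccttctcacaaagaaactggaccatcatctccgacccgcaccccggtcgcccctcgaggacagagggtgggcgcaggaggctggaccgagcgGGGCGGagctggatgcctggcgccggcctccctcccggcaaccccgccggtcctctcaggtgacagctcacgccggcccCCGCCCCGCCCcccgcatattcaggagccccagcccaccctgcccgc
COL17A1: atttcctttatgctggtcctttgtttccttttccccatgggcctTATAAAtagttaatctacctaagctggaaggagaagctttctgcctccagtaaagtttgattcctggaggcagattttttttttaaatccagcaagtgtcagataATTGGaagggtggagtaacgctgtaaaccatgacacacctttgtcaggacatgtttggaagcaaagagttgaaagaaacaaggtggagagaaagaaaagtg
The COL4A1-COL4A2 interval, 126 bases long, had a GC content of 80.2% with 20 CpG sites, 1 CCAAT and 1 GGGCGG. The 121 bases common to COL4A6 and COL4A5 had 44.6% GC, 3 CpG sites and 2 CCAAT motifs in opposite orientation. The COL9A2 sequence had 71.6% GC, 22 CpG sites and 3 GGGCGG, and that of COL17A1 had 40.4% GC, 1 CpG site, 1 CCAAT and 1 TATAAA. Over all 35116 RefSeq windows of 250 bases the median GC content was 58%, and CCAAT was present in 32.0%, GGGCGG in 42.6% and TATAAA in 10.7%. Among the 44 windows of the 32 collagens the median GC content was 64.2% and the shares were 27.3%, 54.5% and 18.2%. These matches describe the letters only, and no binding was measured here.

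Of the 44 collagens, 16 exceeded log2 FPKM 3 (8 FPKM), the study's expression minimum, in at least 1 tumor, and 18 had a mean log2 FPKM above 1 with no value at the floor of −9, at which an FPKM of 0 is listed. These 18 are called expressed below. In contrast, 23 collagens stayed below 1 FPKM in all 3 tumors, 10 were listed at −9 in at least 1 of them, and 20 stood for no more than about 40 fragments in any tumor. COL9A3, a chain of the cartilage-type FACIT collagen IX, held the highest level in each tumor, at 300.0 FPKM under vehicle, 383 under CDK2i and 162 under EZH2i. COL6A1, a chain of the microfibrillar collagen VI, followed at 142, 218 and 137 FPKM. Next by vehicle level came COL6A2, COL16A1, COL7A1, COL17A1 and COL12A1, at 111, 52.3, 50, 47.4 and 45.4 FPKM, and the last 4 of these differed from each other by less than the spread of genes at such levels. All collagens together summed to 906 FPKM under vehicle, 1275 under CDK2i and 964 under EZH2i, which was 0.189%, 0.295% and 0.238% of the summed FPKM of all genes. Without COL9A3 the sums were 606, 892 and 802 FPKM.

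**Figure D1:**
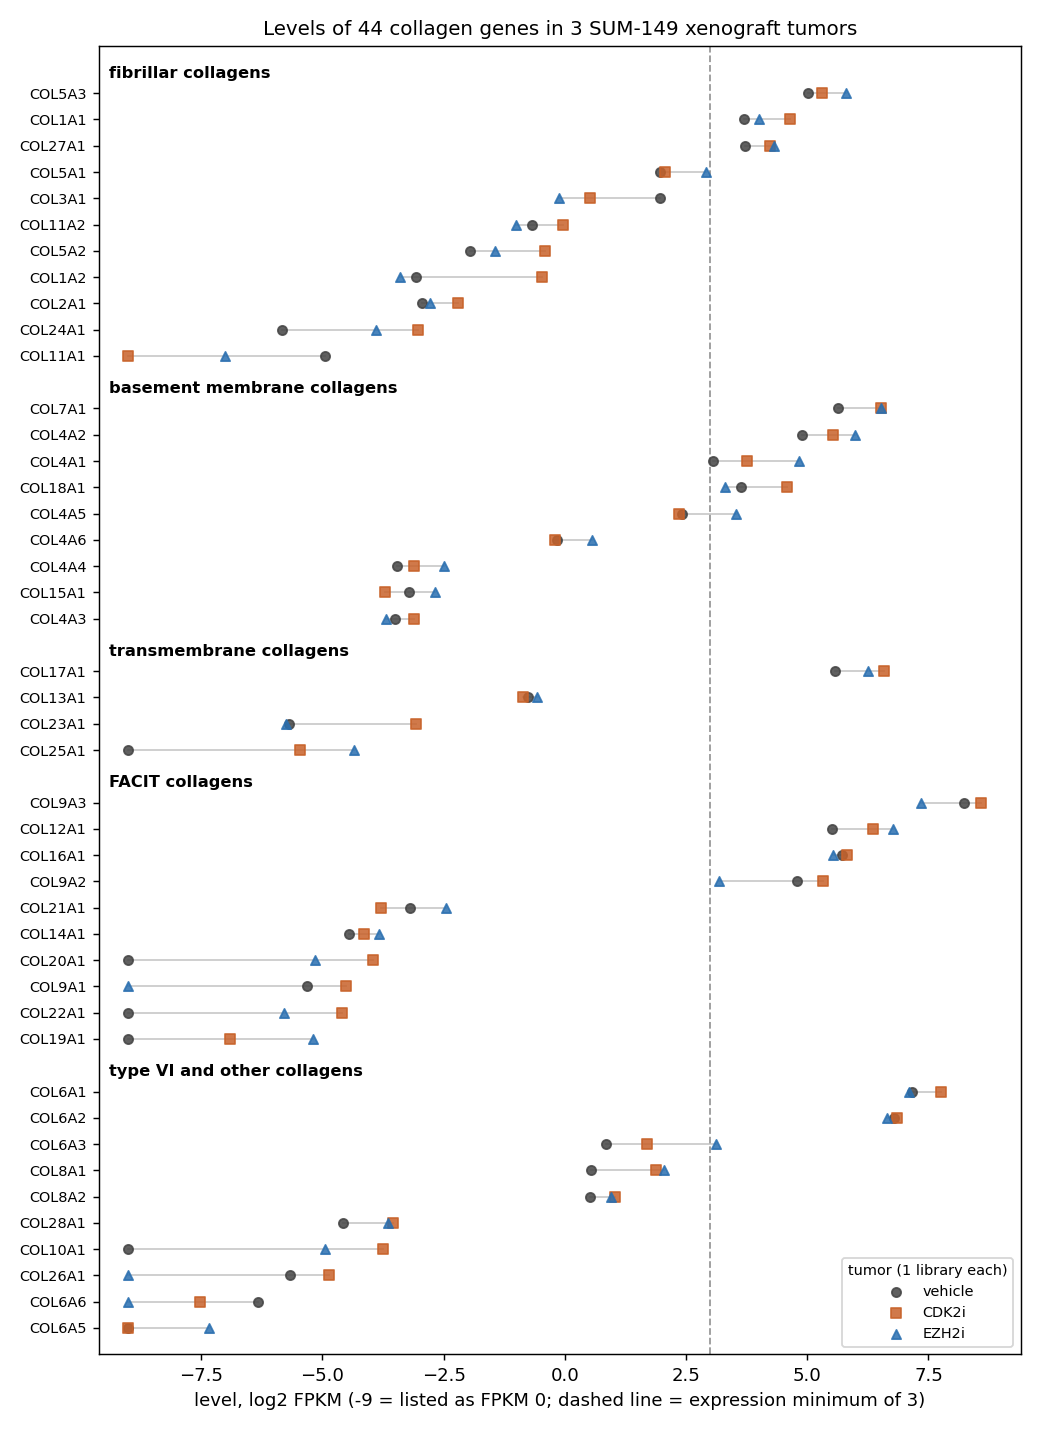
Level of each of the 44 collagen genes in log2 FPKM (horizontal axis) in the vehicle (circles), CDK2i (squares) and EZH2i (triangles) tumors, 1 library each, grouped by class and ordered by the highest value; the dashed line is the expression minimum of log2 FPKM 3. COL9A3 stands highest in all 3 tumors, and 23 of the 44 genes lie below log2 FPKM 0 in every tumor.

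A collagen was counted as changed when it differed by more than 2-fold and the higher value of the pair exceeded log2 FPKM 3, the fold and expression thresholds of the study. A gene can thus enter a count only through the tumor where it is higher, in each list as in the shares over all genes. As a stand-in for replicate error, the spread of a gene was taken from the 200 genes closest to it in mean level, as the SD of their log2 difference between EZH2i and CDK2i, which holds drug effects as well as noise. Levels are in FPKM and changes are differences of log2 FPKM throughout. In bulk tumors, fewer cells of a type and less RNA per cell cannot be told apart. In EZH2i, the change across all expressed genes also ran with transcript composition. Across genes, which are not independent, the Spearman correlation with GC content was −0.574 in EZH2i and 0.0355 in CDK2i, and that with transcript length was 0.493 and 0.105. The expressed collagens had a median GC content of 61.7% and a median transcript length of 6060.5 bases, against 49.8% and 3112 over 9583 annotated expressed genes, so that changes with this trend removed are given beside the collagen calls in EZH2i, and for the other genes called in EZH2i where a matched transcript gave one.

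Among basement membrane and transmembrane collagens, the type IV chains COL4A1, COL4A2 and COL4A5 rose in the EZH2i tumor and COL17A1 rose in the CDK2i tumor. COL4A1 (chromosome 13, 110801310 to 110959504 on GRCh37, the build of all gene positions given here), a chain of the ubiquitous type IV network, was at 8.32 FPKM under vehicle, 13.5 under CDK2i and 28.3 under EZH2i. The EZH2i tumor was highest and the vehicle tumor lowest, with log2 changes from vehicle of 0.70 in CDK2i and of 1.77 in EZH2i against a spread of 0.76. COL4A2 (110958159 to 111165556), its partner on the opposite strand across the interval printed above, was at 29.9, 46.1 and 63.4 FPKM. The annotated spans of the pair overlap at their starts, so a few fragments there could have been assigned to either gene. COL4A2 had the same order of tumors as COL4A1, with changes of 0.63 and 1.09 and a spread of 0.61. The antisense gene COL4A2-AS1 was at no more than 0.29 FPKM, and the sources used here do not state whether counting used the strand.

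COL4A5 (chromosome X, 107683068 to 107940775), a chain of the type IV networks of epithelial basement membranes, was at 5.34 FPKM under vehicle, 5.15 under CDK2i and 11.5 under EZH2i. Here the vehicle and CDK2i tumors were alike in level and the EZH2i tumor stood above both, with changes of −0.05 and 1.11 and a spread of 0.84. COL4A6, its head-to-head neighbor, was at 0.89, 0.87 and 1.47 FPKM, also with the EZH2i tumor above the others but below the expression minimum. With the GC and length trend removed, the EZH2i change was 1.48 for COL4A1, 1.03 for COL4A2 and 0.65 for COL4A5, so that COL4A5 no longer exceeded 2-fold. COL4A3 and COL4A4, chains best known from the kidney filter and other specialized membranes, stayed below 0.18 FPKM.

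COL17A1 (chromosome 10, 105791044 to 105845638), the transmembrane collagen of hemidesmosomes, was at 47.4 FPKM under vehicle, 96.6 under CDK2i and 76.7 under EZH2i. Both treated tumors stood above vehicle, with a change of 1.03 in CDK2i and of 0.70 in EZH2i against a spread of 0.69. It was the 1 collagen that changed in CDK2i, of 14 above the expression minimum in that pair (7.14%). Among all 6632 genes above the minimum, 11.3% passed in either direction, 3.27% higher and 8.07% lower. COL1A1, at 0.95, lay just outside the fold threshold. The call was lost when the libraries were scaled to the same summed FPKM leaving out genes of ribosomal proteins and of the mitochondrial genome.

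COL7A1, which forms anchoring fibrils, was at 50 FPKM under vehicle, 91.5 under CDK2i and 91.6 under EZH2i, changes of 0.87 in both against a spread of 0.72. The treated tumors were at the same level and neither passed the 2-fold threshold. COL18A1, a basement membrane collagen whose end releases endostatin, was at 12.5, 23.9 and 9.93 FPKM. The CDK2i tumor stood apart from the others, with changes from vehicle of 0.94 in CDK2i and of −0.33 in EZH2i against a spread of 0.79. The other transmembrane collagens, COL13A1, COL23A1 and COL25A1, did not exceed 0.68 FPKM in any tumor.

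**Figure D2:**
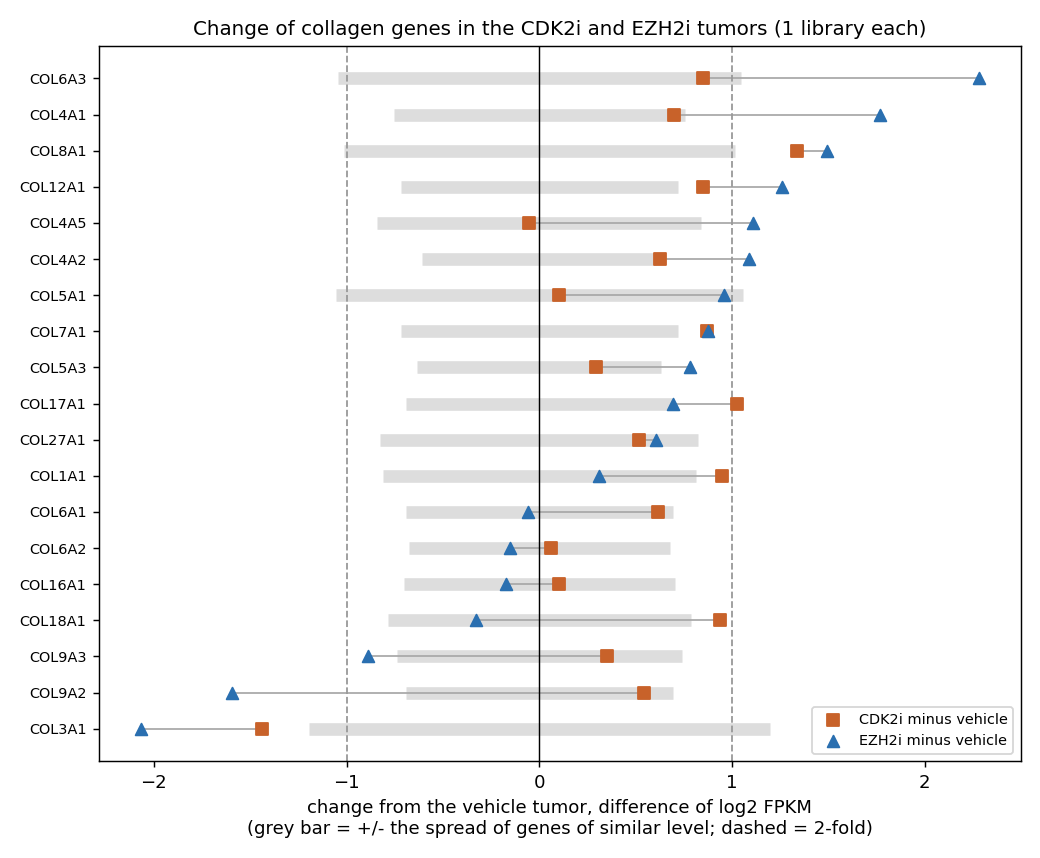
Change of the 18 expressed collagens and COL3A1 from vehicle, in log2 FPKM units (horizontal axis), in CDK2i (squares) and EZH2i (triangles), ordered by the EZH2i value; grey bars are plus and minus the spread of genes of similar level and dashed lines mark 2-fold, with 1 library per tumor. COL6A3 and COL4A1 lie farthest to the right in EZH2i at 2.28 and 1.77, and COL9A2 and COL3A1 farthest to the left at −1.60 and −2.07.

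Of the genes for proteins that collagens VII, XVII and IV join in the basement membrane zone, 13 of 14 were expressed. In CDK2i, 2 of the 11 above the minimum rose and none fell, where 3.27% of all genes rose and 8.07% fell. In EZH2i 5 of 12 rose and none fell by the same thresholds, where 8.93% of all genes rose and 4.42% fell. Their median changes were 0.76 and 0.90, beside −0.11 and 0.19 over all 11109 expressed genes. LAMA3, a chain of laminin-332, the ligand layer to which anchoring fibrils attach, was at 15.0 FPKM under vehicle, 35.9 under CDK2i and 66.9 under EZH2i. LAMB3, another laminin chain, was at 273, 395 and 523 FPKM without passing the threshold. ITGA6, a subunit of the hemidesmosome integrin, was at 38.1, 94.9 and 126 FPKM. In LAMA3, LAMB3 and ITGA6 the tumors had the same order by level, vehicle lowest and EZH2i highest. The lead of EZH2i over CDK2i was 0.90, 0.40 and 0.41. Without the trend it was 0.31, 0.32 and −0.41, so that ITGA6 was then higher in CDK2i. The changes of LAMA3 and ITGA6 were 1.26 and 1.32 in CDK2i and 2.15 and 1.73 in EZH2i. DST, PLEC, LAMB1, LAMC1 and NID2 also had vehicle lowest and EZH2i highest by level, but the rest of the list did not. For LAMC1 the lead over CDK2i was 0.28, and −0.39 without the trend. Centring the libraries on their median gene adds −0.43 to every such lead. This is larger in size than the leads of LAMB3, ITGA6, LAMC1 and PLEC, the last being 0.30. ITGB4, the other subunit of that integrin, was at 142, 247 and 182 FPKM, highest in CDK2i, without passing. LAMA5, LAMB2, NID1 and HSPG2 were also highest in CDK2i, and CD151 was highest in vehicle. The cytoskeletal linker DST and the nidogen-binding laminin chain LAMC1 rose in EZH2i, with changes of 1.36 and 1.04, as did PLEC, another linker, with 1.04. Without the trend the EZH2i changes were 1.62 for LAMA3, 1.02 for ITGA6 and 1.03 for PLEC, while DST at 0.65 and LAMC1 at 0.47 no longer exceeded 2-fold.

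Among the FACIT collagens, COL9A2 fell and COL12A1 rose in the EZH2i tumor. COL9A2 (chromosome 1, 40766161 to 40783485) was at 27.5 FPKM under vehicle, 40 under CDK2i and 9.09 under EZH2i. The EZH2i tumor was below both others, with a change from vehicle of −1.60, or −1.29 without the trend, against a spread of 0.69. COL9A3 (chromosome 20, 61447596 to 61472511), given above at 300.0, 383 and 162 FPKM, had the same order of tumors with changes of 0.35 and −0.89 and a spread of 0.74. It passed the thresholds against CDK2i but not against vehicle, and its share of all collagen FPKM was 33.1% in vehicle, 30.0% in CDK2i and 16.8% in EZH2i. COL9A1, the third chain of collagen IX, was at 0.03 and 0.04 FPKM in vehicle and CDK2i and listed at −9 in EZH2i, about 3 fragments at most. COL12A1 (chromosome 6, 75794042 to 75915983), a collagen bound to the surface of type I fibrils, was at 45.4, 81.7 and 109 FPKM. Vehicle was lowest and EZH2i highest, with changes of 0.85 and 1.26 and a spread of 0.72. It has the longest transcript of the expressed collagens, 11725 bases with 46.3% GC, and its EZH2i change was 0.56 without the trend, no longer 2-fold. The lead of EZH2i over CDK2i was 0.41, and −0.31 without the trend. COL16A1 was at 52.3, 56.2 and 46.5 FPKM, all within its spread of 0.70.

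Of the chains of collagen VI, COL6A3 rose in EZH2i and the others did not pass the thresholds. COL6A1, given above, had changes of 0.62 in CDK2i and −0.06 in EZH2i, both inside its spread of 0.69. COL6A2, its neighbor on chromosome 21, was at 111, 116 and 100 FPKM, all within its spread of 0.68. COL6A3 (chromosome 2, 238232646 to 238322971), the large chain of collagen VI, was at 1.80 FPKM under vehicle, 3.24 under CDK2i and 8.74 under EZH2i, from about 318, 653 and 1612 fragments. EZH2i was highest, with a change from vehicle of 2.28, or 1.83 without the trend, and a spread of 1.05. Its lead over CDK2i was 1.43. This lead was 0.95 without the trend and 0.999 with the libraries centred on their median gene, both inside the spread. COL8A1, a short-chain collagen of vessel and corneal membranes, was at 1.46, 3.70 and 4.11 FPKM and remained below the expression minimum although both changes, 1.34 and 1.49, exceeded its spread of 1.02. Without the trend its EZH2i change was 0.93, inside that spread.

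In all, 6 of the 16 collagens above the minimum passed the thresholds in EZH2i against vehicle (37.5%), where 13.4% of 7414 genes passed in either direction. COL4A1, COL4A2, COL4A5, COL6A3 and COL12A1 were higher, 31.2% against 8.93% of all genes, and COL9A2 was lower, 6.25% against 4.42%. COL4A5 and COL6A3 exceeded the minimum in EZH2i alone, at log2 FPKM 3.53 and 3.13, beside 2.42 and 0.85 in vehicle. They thus entered the 16 only through the tumor in which they were called higher. With the libraries centred on their median gene 4 collagens passed, COL4A1 and COL12A1 higher and COL9A2 and COL9A3 lower. The calls of COL4A2 and COL4A5 were lost by fold, at 0.84 and 0.86. COL6A3 kept a change of 2.03 and was lost by level alone, since its EZH2i value, log2 FPKM 3.13, fell below the minimum of 3 when 0.227 was taken off. With the trend removed 4 passed, which were COL4A1, COL4A2, COL6A3 and COL9A2. Over the 18 expressed collagens the median change was 0.62 in CDK2i, with 17 above vehicle, and 0.74 in EZH2i, with 12 above it. Under the other scalings tried, 14 to 18 were above vehicle in CDK2i and 12 to 15 in EZH2i, and both medians stayed above 0. Of all expressed genes, 41.9% were above vehicle in CDK2i and 61.5% in EZH2i. Measured from the median gene, the collagen medians were 0.73 and 0.55, and they were 0.60 and 0.53 without the trend. Both comparisons share the vehicle library. The mean level that defines the 18 includes the treated tumors. It left out COL3A1, lower in both of them, and kept COL6A3 and COL8A1, whose vehicle levels were below log2 FPKM 1.

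By class, the 6 expressed basement membrane and transmembrane collagens had a median change of 0.78 for CDK2i and 0.98 for EZH2i, with 5 above vehicle and 1 below in each, COL4A5 in CDK2i and COL18A1 in EZH2i, and all 6 above it in CDK2i when libraries were centred or their sums made equal. The 4 expressed fibrillar collagens had median changes of 0.41 and 0.70, all 4 above vehicle in both. With the sums made equal leaving out ribosomal protein and mitochondrial genes, COL5A1 was below it in CDK2i. COL3A1, at 3.88 FPKM in vehicle beside 3.90 for COL5A1, was lower in both treated tumors, and its mean level left it out. With COL3A1 included the fibrillar medians were 0.295 and 0.606. The 4 expressed FACIT collagens had median changes of 0.45 and −0.53, with COL12A1 above vehicle and the others below it in EZH2i, where COL16A1 was above it with the sums made equal. The share of collagen FPKM held by basement membrane and transmembrane collagens was 17.1% in vehicle, 21.8% in CDK2i and 29.5% in EZH2i, while that of the FACIT class was 46.9%, 44% and 33.9%. Fibrillar collagens held 7.45%, 7.22% and 10.5%.

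The EZH2i tumor was also compared with the CDK2i tumor directly, and 6 of 16 collagens passed (37.5%), where 24.1% of 7394 genes did. Again COL4A5 and COL6A3 entered the 16 through the EZH2i tumor alone. COL4A1, COL4A5 and COL6A3 were higher in EZH2i, 18.8% against 17.5% of all genes, and COL9A2, COL9A3 and COL18A1 were lower, 18.8% against 6.52%. The changes were 1.07, 1.16 and 1.43 for the former and −2.14, −1.24 and −1.26 for the latter. This balance depended on the scaling between libraries, since centring the libraries on their median gene left 0 higher and 5 lower. With the trend removed COL9A2 alone passed, at −1.79. The median over the 18 expressed collagens was 0.04, beside 0.35 over all genes, and −0.39 with the libraries centred.

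The fibrillar collagens were mostly weak, and the chains typical of fibroblasts were unlike each other. COL1A1 (chromosome 17, 48261462 to 48278993), the major chain of type I collagen, was at 13.0 FPKM under vehicle, 25.1 under CDK2i and 16.1 under EZH2i, or about 1291, 2838 and 1667 fragments. CDK2i was highest, with changes of 0.95 and 0.31 and a spread of 0.81. Its partner COL1A2 was at 0.12, 0.72 and 0.10 FPKM, or about 10, 70 and 8 fragments, also with CDK2i highest and too few fragments elsewhere for a firm fold. COL3A1 (chromosome 2, 189839099 to 189877472), the collagen that accompanies type I in loose tissue, was at 3.88, 1.43 and 0.93 FPKM, or about 357, 150 and 89 fragments. Here the order was different, with vehicle highest, changes of −1.44 and −2.07 and a spread of 1.20, below the expression minimum in all tumors.

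COL5A3 and COL27A1, fibrillar chains that were at higher levels than COL1A1 or near it, did not pass the thresholds. COL5A3 (chromosome 19, 10070237 to 10121180), a minor chain of collagen V, was at 32.4 FPKM under vehicle, 39.8 under CDK2i and 55.9 under EZH2i, with changes of 0.30 and 0.78 and a spread of 0.63. COL27A1 was at 13.1, 18.8 and 19.9 FPKM. COL5A1 was at 3.90, 4.19 and 7.56 FPKM with changes of 0.10 and 0.96 and a spread of 1.05, and COL5A2 at 0.26, 0.75 and 0.37 FPKM. EZH2i had the highest value for COL5A1, COL5A3 and COL27A1, but its lead over CDK2i, of 0.85, 0.49 and 0.09, was smaller than the spread in each, and for COL27A1 it was −0.35 with the libraries centred. It was not highest for COL1A1, COL1A2, COL3A1 or COL5A2. The cartilage fibrillar chains COL2A1, COL11A1 and COL11A2 stayed below 1 FPKM, as did COL24A1.

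Because the tumors grew in mice and reads were aligned to the human genome, markers of host cell types were read beside the fibrillar collagens, without a mouse alignment. Of 11 fibroblast markers 10 were in the table and 3 were expressed, THY1 was listed at −9 in all tumors, and the summed level was 11.7 FPKM under vehicle, 17.3 under CDK2i and 15.3 under EZH2i. PDGFRA and PDGFRB, receptors that define fibroblasts and pericytes, were at no more than 0.15 FPKM. LUM, a proteoglycan of collagen fibrils, was at 4.53, 9.19 and 6.95 FPKM and rose in CDK2i by 1.02. DCN, which encodes the proteoglycan decorin, was at 2.75, 1.70 and 4.67 FPKM. FBLN1 and POSTN, both matrix proteins, were at 3.07, 4.61 and 1.07 FPKM and at 0.23, 0.34 and 0.02 FPKM. FAP, a protease of activated fibroblasts, was at 0.56, 0.85 and 2.26 FPKM. Of the 9 markers above the floor, CDK2i was highest for PDGFRA, LUM, FBLN1, POSTN and DPT, as it was for COL1A1 and COL1A2, EZH2i for FAP and DCN, and vehicle for PDGFRB and SFRP2. PDGFRA, PDGFRB, POSTN, DPT and SFRP2 stood for at most 22 fragments in any tumor, so that their order carries little.

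Pericyte and smooth muscle markers summed to 33.0, 48.7 and 48.1 FPKM, of which CSPG4 made up 27.9, 43.9 and 43.2, and DES was listed at −9 in vehicle and EZH2i. The 5 endothelial markers in the table of 7 listed were below 1 FPKM in each tumor, with sums of 0.99, 0.79 and 0.82 FPKM. The 6 leukocyte markers summed to 0.41, 0.20 and 0.44 FPKM, and PTPRC, CD68, CD163 and AIF1 were at −9 in at least 1 tumor. The 4 adipocyte markers in the table of 5 listed summed to 33.2, 19.3 and 3.54 FPKM, nearly all from FABP4, at 32.6, 18.6 and 3.03 FPKM, while ADIPOQ was at or near 0. The order vehicle, CDK2i, EZH2i from high to low, which COL3A1 had, was that of 6 of the 24 fibroblast, pericyte, endothelial and adipocyte markers above the floor, namely PDGFRB, RGS5, TAGLN, KDR, PLIN1 and FABP4. The share of all genes with this order was not counted, so the 6 cannot be read as a result about these markers. PDGFRB, KDR and PLIN1 stood for at most about 46 fragments in any tumor. TAGLN was nearly level, at 2.84, 2.47 and 2.30 FPKM. What part host cells or mouse reads had in the collagen values was not tested.

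**Figure D3:**
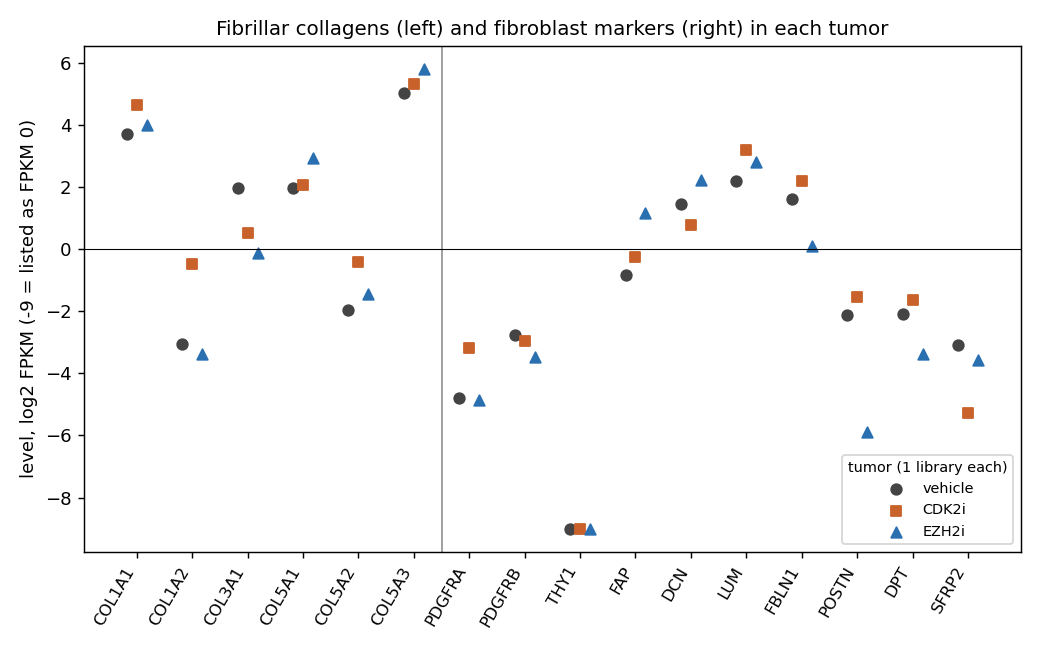
Levels in log2 FPKM (vertical axis) of 6 fibrillar collagens of types I, III and V (left of the line) and 10 fibroblast markers (right) in the vehicle (circles), CDK2i (squares) and EZH2i (triangles) tumors, 1 library each. COL1A1 and COL5A3 lie above 8 FPKM in all tumors, whereas PDGFRA, PDGFRB and COL1A2 lie below 1 FPKM and THY1 is at the floor of −9.

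Ratios between chains within a tumor do not depend on the scaling between libraries. In EZH2i they still hold the GC and length trend where it differs between the chains. Type I collagen is assembled from COL1A1 and COL1A2 chains, and the level of COL1A1 was 109 times that of COL1A2 in vehicle, 34.7 times in CDK2i and 169 times in EZH2i, with COL1A2 at 10, 70 and 8 fragments. COL5A1 was 15.2, 5.58 and 20.5 times COL5A2, also lowest in CDK2i. COL4A2 exceeded COL4A1 by 3.59 times in vehicle and 3.42 times in CDK2i but 2.24 times in EZH2i. COL4A5 was 6.0, 5.95 and 7.82 times COL4A6. The vehicle and CDK2i tumors thus had similar type IV ratios and EZH2i differed from them, for COL4A1 to COL4A2 by 0.68 on the log2 scale from vehicle and 0.61 from CDK2i, which is close to the spread of either gene. Part of these differences went with the trend. In EZH2i against vehicle it was 0.29 for COL4A1 and 0.06 for COL4A2, and 0.46 for COL4A5 and 0.31 for COL4A6. COL9A3 was 10.9, 9.57 and 17.8 times COL9A2, although both transcripts have similar length (2497 and 2852 bases) and GC content (67.4% and 65.2%). COL6A1 was 1.28, 1.88 and 1.37 times COL6A2 and 79.1, 67.3 and 15.6 times COL6A3, so the ratio to COL6A3 was lowest in EZH2i. Without the trend the EZH2i changes from vehicle were 1.83 for COL6A3 and 0.06 for COL6A1, beside 2.28 and −0.06 with it.

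**Figure D4:**
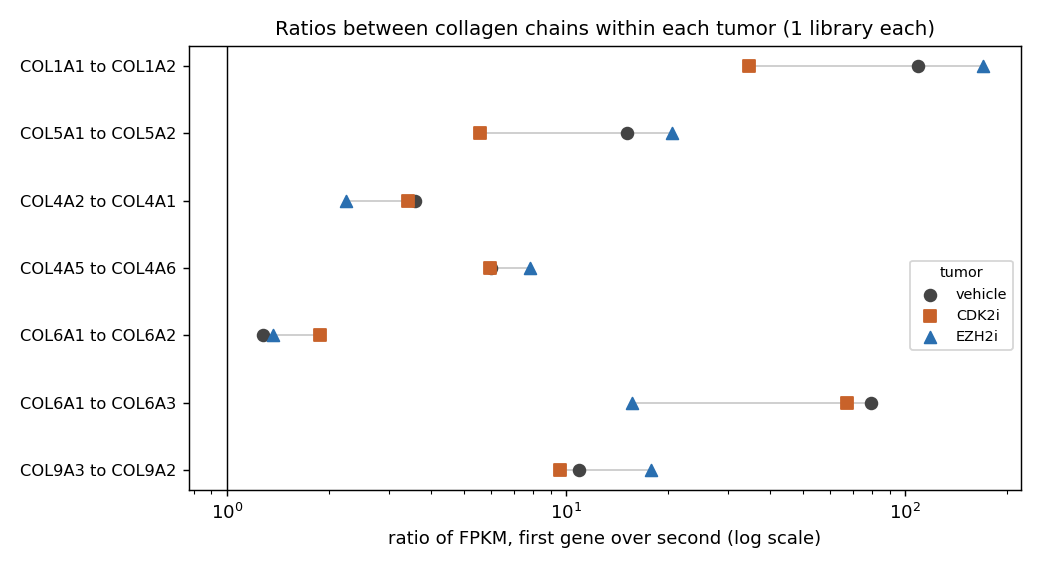
Ratio of FPKM between chains within each tumor (horizontal axis, log scale) for 7 pairs, in vehicle (circles), CDK2i (squares) and EZH2i (triangles), 1 library each; the line marks a ratio of 1. The COL6A1 to COL6A3 ratio is 15.6 in EZH2i against 79.1 in vehicle, and the COL1A1 to COL1A2 ratio spans 34.7 to 169 on few COL1A2 fragments.

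A list of 29 genes covered the folding, modification, export, procollagen cleavage and crosslinking of collagen chains. All were in the table and 21 were expressed, with a median change of 0.27 for CDK2i and 0.14 for EZH2i. None of the 18 above the minimum passed in CDK2i, where 11.3% of all genes did, and 1 of 19 passed in EZH2i, where 13.4% did. LEPREL1, a prolyl 3-hydroxylase (an older symbol of P3H2) that acts on type IV collagen, was at 14 FPKM under vehicle, 13.0 under CDK2i and 28.9 under EZH2i with a change of 1.04 and a spread of 0.81. LEPREL1 lay just past 2-fold, and centring the libraries, which adds −0.25 to every EZH2i change from vehicle, takes it below. No matched transcript gave a value without the trend. The order of tumors for LEPREL1 was that of COL4A5. P4HA2, a prolyl 4-hydroxylase subunit, was at 31.5, 50.8 and 19.8 FPKM and was lower in EZH2i than in CDK2i by the thresholds, with −1.36.

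Among 11 genes for collagen breakdown and its control, which include the inhibitors TIMP1, TIMP2 and TIMP3, MMP9 and MMP1 rose. TIMP1, at 122, 130 and 141 FPKM, is among those counted above the minimum. MMP9, a gelatinase that cleaves denatured and type IV collagen, was at 20 FPKM under vehicle, 102 under CDK2i and 56.4 under EZH2i, with changes of 2.35 and 1.49 and a spread of 0.65. MMP1, which cleaves fibrillar collagen, was at 1.78, 5.01 and 9.56 FPKM and passed in EZH2i with 2.42. Without the trend the EZH2i changes were 1.80 for MMP9 and 2.12 for MMP1. By level MMP9 was thus highest in CDK2i and MMP1 in EZH2i, with vehicle lowest for both. The difference of EZH2i from CDK2i was −0.86 for MMP9 and 0.93 for MMP1. Without the trend it was −0.62 and 0.41, inside the spreads of 0.65 and 0.84. In CDK2i 1 of the 5 genes above the minimum passed and in EZH2i 2 of 6, beside the same 11.3% and 13.4% of all genes, and none fell.

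Of 9 collagen receptors 3 were expressed, and of these 2 passed in EZH2i and 0 in CDK2i. Of all genes above the minimum, 13.4% passed in EZH2i and 11.3% in CDK2i, and 3 receptors are too few to compare with these shares. ITGA2 and ITGB1, which together form the epithelial integrin for collagen, rose in EZH2i. ITGA2 was at 4.77 FPKM under vehicle, 8.15 under CDK2i and 14.2 under EZH2i, and ITGB1 at 44.3, 76.4 and 120 FPKM, with EZH2i changes of 1.58 and 1.44 and spreads of 0.90 and 0.72. Without the trend these were 0.74 and 0.80, so that neither exceeded 2-fold. DDR1, an epithelial receptor tyrosine kinase for collagen, was at 262, 387 and 235 FPKM and did not pass, and DDR2, its mesenchymal relative, was at 0.33, 0.86 and 1.17 FPKM.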

How the data were processed

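RNAseq was performed by the authors on total RNA of 3 xenograft tumors, 1 library each for vehicle, CDK2i and EZH2i. The submitters' processing notes name CASAVA, STAR and hg19, and the counting tool and the treatment of mouse reads are not given in the sources used here. The authors deposited log2 FPKM per gene symbol, with −9 where FPKM was 0. Depth was recovered from whole-fragment steps: 75.4%, 75.6% and 75.0% of weak values were whole within 0.02 of a fragment, against about 1% at a median trial depth. Changes are differences of deposited log2 FPKM without a pseudocount. Calls used the study's thresholds, fold above 2 and log2 FPKM above 3, over all genes. The limma p-value was not computed, since 1 library per group gives no error. Fragments, GC content and length came from GENCODE 44 transcripts on GRCh37 (18852 symbols matched, 44 of 44 collagens). The trend in GC content and log2 length was a polynomial of degree 3, fitted to expressed genes that encode no ribosomal protein. Named were collagens above log2 FPKM 3 or called, fibrillar members above 0, measured chain pairs and up to 4 genes of each other list. COL4A3, COL4A4 and genes given only as below 1 FPKM or at the floor, with the remaining genes of other lists, were added for context. The members and lists were chosen with earlier results of these data known. An item of the list of basement membrane partners is not reported here and was left out of its counts. The steps were tested on simulated data. Python 3.11.15, numpy 2.4.6, pandas 2.3.3 and matplotlib 3.10.9 were used.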

Additional observations from a re-analysis of the deposited data

How the results depend on the processing

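Thresholds moved the counts of changed collagens most. In CDK2i against vehicle, where 1 passed, 8 passed at a fold of 1.5, 0 at a fold of 3, 15 with no expression minimum and 3 with a minimum of log2 FPKM 1. Scaling gave 5 with libraries centred on the median gene, 4 with equal summed FPKM and 0 with sums equal leaving out genes of ribosomal proteins and of the mitochondrial genome. In EZH2i against vehicle, where 6 passed, the counts were 11 at a fold of 1.5, 3 at a fold of 3, 19 with no minimum and 2 with a minimum of 5. In EZH2i against CDK2i, also 6, they were 1 at a fold of 3, 21 with no minimum, 2 with a minimum of 5 and 1 with the GC and length trend removed. Centring added 0.18, −0.25 and −0.43 to every change in the 3 comparisons. By this shift the EZH2i against CDK2i median turned to −0.14 for fibrillar and −0.20 for basement membrane and transmembrane collagens. Of 324 alternatives for single collagens, 323 stayed within the spread, and COL12A1 in EZH2i against CDK2i turned to −0.31 with the trend removed. This count is no measure of robustness. No scaling shift was larger in size than the −0.43 of centring, and the smallest spread of a named collagen was 0.61 (COL4A2). The scalings thus could not move a change past its spread, although they changed the calls given above. No paired analysis was possible because each condition had 1 library. For the same reason no library could be left out. Depth limits COL1A2, COL9A1 and the collagens of at most 40 fragments.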
